A study of Homo sapiens with 8 samples.

Results

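The regulatory neighbourhoods of 10 forkhead transcription factor genes were examined for binding of the homeodomain proteins HoxC5 and Pbx4 in PC-3 cells, an established human prostate cancer cell line. The genes were FOXA1, FOXA2, FOXA3, FOXC1, FOXC2, FOXO1, FOXO3, FOXP1, FOXQ1 and FOXM1, out of 20136 protein-coding genes in the annotation. A peak was assigned to a gene when its summit, the position of strongest enrichment, lay in the gene body or within 50 kb of the TSS (transcriptional start site) of any annotated transcript of that gene. This neighbourhood is called the locus below. The 10 loci did not overlap one another and held 298 of the 223511 peaks in 4 ChIP-Seq peak lists. Unmodified PC-3 cells gave 2 libraries of endogenous HoxC5, replicates 1 and 2, immunoprecipitated with an anti-HoxC5 antibody. PC-3 cells overexpressing Flag-tagged HoxC5 gave 1 library with the same antibody. PC-3 cells overexpressing Flag-tagged Pbx4 gave 1 library with an anti-Pbx4 antibody. All 4 libraries came from the same cell line, nothing states that the endogenous replicates came from separate cultures, and the 4 input libraries were not used here.

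Forkhead proteins share a winged-helix DNA-binding domain and recognize sequences around the core TGTTTAC, read as GTAAACA on the other strand. FOXA proteins are pioneer factors, which can bind sites in compacted chromatin, and FOXA1 in prostate cells opens sites used by the androgen receptor. FOXC1 and FOXC2 act in mesoderm and vessel development, FOXO1 and FOXO3 are kept out of the nucleus when AKT phosphorylates them, FOXP1 is mainly a repressor, FOXQ1 is linked to epithelial plasticity and FOXM1 drives genes of late cell division. Hox proteins bind DNA together with Pbx partners such as Pbx4.

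The endogenous lists were short, with 2525 peaks in replicate 1 and 170 in replicate 2, against 67196 for overexpressed HoxC5 and 153620 for overexpressed Pbx4. The highest q-value in the overexpressed HoxC5 list was 0.00997, while the Pbx4 list reached 0.0490, so that these lists end at different depths of significance. Sequencing depth is stated in the methods only as an average span over libraries, and no list carries a read total, so that none can be given for a single library. Fold enrichments are the authors' values, relative to local background, and their ranks were taken within a list. Where folds of different lists stand side by side, they are as deposited and were not scaled to each other. Each condition other than the endogenous one had a single library, so that no test between conditions was made and all comparisons are descriptions of these lists.

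Peaks were present at every forkhead locus in both overexpression lists, and at FOXA1, FOXC1, FOXC2, FOXP1 and FOXQ1 in endogenous replicate 1. Overexpressed HoxC5 had 108 peaks at the 10 loci and overexpressed Pbx4 had 181, with at least 1 peak at 10 of 10 genes in each list. By the same rule, 87.8% of all protein-coding genes had a peak of overexpressed HoxC5 and 93.1% had one of Pbx4, so that the presence of a peak is common in both lists. Endogenous replicate 1 had 8 peaks at 5 of the 10 genes, where 17.2% of protein-coding genes had a peak. Endogenous replicate 2 had 1 peak, at FOXA1, where 1.47% of protein-coding genes had one.

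A summit near a start site was found for more of the genes in the overexpressed HoxC5 list than in the Pbx4 list, as over all protein-coding genes. A summit within 1 kb of a TSS was found for 8 of the 10 genes with overexpressed HoxC5 (all but FOXC2 and FOXQ1), beside 55.0% of all protein-coding genes. With Pbx4 this held for 4 genes, FOXA1, FOXC1, FOXO1 and FOXP1, beside 42.0% of all genes. In endogenous replicate 1 only FOXA1 had such a summit, beside 3.38% of all genes, and in replicate 2 no member had one, beside 0.209% of all genes. FOXP1 has 67 annotated start sites spread over 629 kb, and every other member has between 1 and 10, which affects how easily a summit falls within 1 kb of one.

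The longest locus held the most peaks. FOXP1, whose locus spans 718 kb and is longer than all but 0.978% of coding loci, held 44 of the 108 overexpressed HoxC5 peaks (40.7%) and 86 of the 181 Pbx4 peaks (47.5%). The other 9 loci measured from 100 to 204 kb. Per 100 kb of locus, the median over the 10 members was 6.04 peaks of overexpressed HoxC5 and 6.16 of Pbx4, beside medians of 3.15 and 5.97 over all protein-coding genes. FOXA1 was the densest locus in both lists, with 18.7 peaks of overexpressed HoxC5 and 25.5 peaks of Pbx4 per 100 kb. Only 0.323% and 0.303% of coding loci were as dense, respectively. FOXO1 in the HoxC5 list, with 0.490 peaks per 100 kb, and FOXM1 in the Pbx4 list, with 0.889, had the lowest densities.

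**Figure D1:**
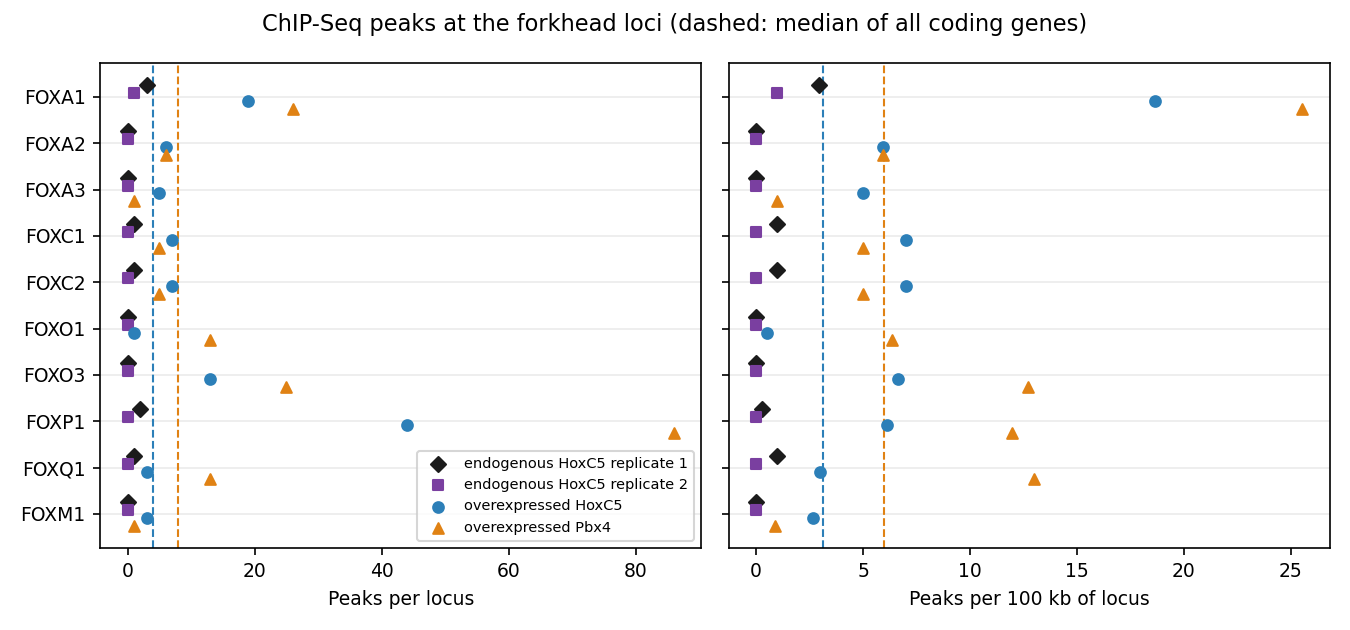
Number of peaks per locus (left) and per 100 kb of locus (right) for each of the 10 forkhead genes, 1 point per peak list. Dashed lines mark the medians over all protein-coding genes for overexpressed HoxC5 (4 peaks, 3.15 per 100 kb) and Pbx4 (8 peaks, 5.97 per 100 kb). FOXP1 has the most peaks, and FOXA1 has the most per 100 kb.

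Most of the endogenous HoxC5 peaks at these loci overlapped a peak of both overexpression lists, and 2 of 8 (25%) lay within 1 kb of a coding start site, beside 24.3% of the whole list. Of the 8 peaks of replicate 1, 7 overlapped a peak of overexpressed HoxC5 by at least 1 bp (87.5%, 95% Clopper-Pearson interval 47.3 to 99.7%), beside 76.4% of that whole list. With a fold enrichment of at least 5 required in every list, 1 of 4 did (25%). The same 7 overlapped a Pbx4 peak, beside 70.8% of the whole list. The exception was the peak at FOXQ1. None of the 8 was found in endogenous replicate 2 (95% interval 0 to 36.9%), beside 5.35% of replicate 1. These intervals cover counting error only. None of the 8 was in the top 10% of replicate 1 by fold enrichment, their folds ranged from 3.71 to 7.24, and their median of 5.04 stood beside 4.98 for the whole list.

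FOXA1 held 3 of the 8. Their folds were 6.47 at 47.2 kb from the nearest FOXA1 start site, in the 3′ UTR of the neighbouring gene MIPOL1, 4.64 at 8.98 kb, downstream of FOXA1 between genes, and 3.71 at 103 bp from the FOXA1 start site. The last summit lies inside an intron of FOXA1 and in the 5′ UTR of TTC6, a gene transcribed the other way. FOXP1 held 2, both in its introns, with folds of 4.27 and 6.63 at 1.93 and 7.56 kb upstream of internal start sites. FOXC1, FOXC2 and FOXQ1 held 1 each. The FOXC1 peak had the highest fold of the 8, 7.24, and its summit was 27.3 kb downstream of the FOXC1 start site in an intron of GMDS, which encodes GDP-mannose 4,6-dehydratase. The FOXC2 peak had a fold of 4.13 and lay 9.22 kb downstream of the FOXC2 start site, but 318 bp from that of FOXL1, a forkhead gene that shares the locus. The FOXQ1 peak had a fold of 5.44, lay 1.39 kb upstream of the start site and was in no other list.

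The only peak of replicate 2 was 45.2 kb upstream of FOXA1, in an intron of TTC6, with a fold of 6.74. It overlapped a Pbx4 peak of fold 4.70, whose summit was 45.3 kb upstream, beside 81.2% of the whole replicate 2 list. It overlapped no peak of overexpressed HoxC5 and none of replicate 1, beside 85.3% and 79.4% of that list.

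The DNA at these sites is shown because a HoxC5 peak was called there without overexpression, at each site in a single endogenous replicate. Sequences are of the plus strand of hg19 (GRCh37). Capitals mark matches on either strand to a few short words, GTAAACA for forkhead proteins, TGACTCA or TGAGTCA for AP-1, TGATTGAT or TGATTAAT for Hox-Pbx pairs and TGACAG for Meis. A window with no capitals has none of these words, nor the Hox word TAATTA, the GC box CCCCGCCC or the TEAD word GGAATG. Bases in untranslated regions or non-coding exons were left out, and the endogenous FOXA1 site in the MIPOL1 3′ UTR is not shown for that reason. Each window covers 50 bp on either side of the summits.
FOXA1 start site, upstream of the gene, chr14:38065265-38065524, with the overexpressed HoxC5 and Pbx4 summits (endogenous summit not covered): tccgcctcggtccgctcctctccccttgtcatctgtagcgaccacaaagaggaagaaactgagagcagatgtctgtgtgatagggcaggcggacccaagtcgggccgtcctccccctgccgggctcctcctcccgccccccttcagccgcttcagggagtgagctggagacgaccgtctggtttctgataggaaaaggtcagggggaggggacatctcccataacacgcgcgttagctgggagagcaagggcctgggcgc
FOXA1, downstream, chr14:38054436-38054536, centred on the replicate 1 summit: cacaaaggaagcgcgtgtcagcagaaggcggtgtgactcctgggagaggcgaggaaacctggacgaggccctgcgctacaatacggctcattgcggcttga
FOXA1, upstream in TTC6, chr14:38110433-38110613, over the replicate 2 and Pbx4 summits: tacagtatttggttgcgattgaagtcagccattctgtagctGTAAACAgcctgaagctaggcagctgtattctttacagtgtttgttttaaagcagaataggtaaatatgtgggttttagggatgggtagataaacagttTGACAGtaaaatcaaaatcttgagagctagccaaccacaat
FOXC1, in GMDS, chr6:1637404-1637504, centred on the replicate 1 summit: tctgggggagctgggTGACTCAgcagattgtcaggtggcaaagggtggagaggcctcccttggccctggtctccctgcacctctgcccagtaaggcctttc
FOXC2 and FOXL1, chr16:86609542-86609706, over the summits of replicate 1, overexpressed HoxC5 and Pbx4: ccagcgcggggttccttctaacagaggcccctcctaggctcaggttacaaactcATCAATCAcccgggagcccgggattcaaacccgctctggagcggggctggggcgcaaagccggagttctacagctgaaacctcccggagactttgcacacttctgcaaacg
FOXP1, intron, chr3:71098089-71098210, over the summits of the same 3 lists: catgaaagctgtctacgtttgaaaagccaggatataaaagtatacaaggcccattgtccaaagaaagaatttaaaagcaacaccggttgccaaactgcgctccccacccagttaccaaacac
FOXP1, intron, chr3:71169283-71169448, over the summits of the same 3 lists: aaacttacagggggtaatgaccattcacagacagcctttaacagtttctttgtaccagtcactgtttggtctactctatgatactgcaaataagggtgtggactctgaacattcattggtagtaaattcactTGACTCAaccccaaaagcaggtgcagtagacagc
FOXQ1, upstream, chr6:1310897-1310997, centred on the replicate 1 summit: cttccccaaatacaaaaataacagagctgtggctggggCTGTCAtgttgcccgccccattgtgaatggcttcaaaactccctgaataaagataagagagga

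FOXA1 is a short gene of 6.51 kb on the minus strand (chr14:38058757-38065264), with MIPOL1 on its downstream side and TTC6 overlapping its 5′ end. Overexpressed HoxC5 had 19 peaks at the locus, with folds from 2.94 to 12.8 and a median of 5.30. Pbx4 had 26 peaks, with folds from 2.30 to 21.9 and a median of 5.35. The HoxC5 peaks gathered at the gene, where 13 of 19 summits lay within 10 kb of its 5′ end, and the Pbx4 peaks were more spread, with 10 of 26 inside that distance. Those counts were not tested against each other. Near start sites, 3 HoxC5 and 4 Pbx4 summits lay within 1 kb. The HoxC5 summit nearest a start site was 43 bp from one, with a fold of 5.87. The nearest Pbx4 summit was 11 bp from the same start site, with a fold of only 2.30, among the weakest of its list. At the 5′ end of the gene itself, a stronger Pbx4 peak had its summit 72 bp upstream with a fold of 11.5, and the HoxC5 peak overlapping it had its summit 210 bp upstream with a fold of 5.30.

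The strongest peaks of the FOXA1 locus lay downstream of the gene and differed between the proteins. The highest HoxC5 peak, of fold 12.8 (top 5.05% of its list), was 9.01 kb from the nearest start site at the downstream site shared with endogenous replicate 1. The summit of its Pbx4 partner lay 10 bp away and had a fold of 6.91. The highest Pbx4 peak, of fold 21.9 (top 0.319% of its list), was 14.0 kb from the nearest start site, and the HoxC5 peak overlapping it had a fold of 5.11, at 70.6% of the way down its list. Of the 19 HoxC5 peaks, 12 overlapped a Pbx4 peak, and 13 of the 26 Pbx4 peaks overlapped a HoxC5 peak. Over the whole lists these shares were 67.7% of HoxC5 peaks and 28.5% of Pbx4 peaks, which also stand beside the counts at the loci below. The nearest protein-coding start site was that of FOXA1 for 15 of the 19 HoxC5 peaks and 15 of the 26 Pbx4 peaks, and that of MIPOL1 or TTC6 for the rest.

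**Figure D2:**
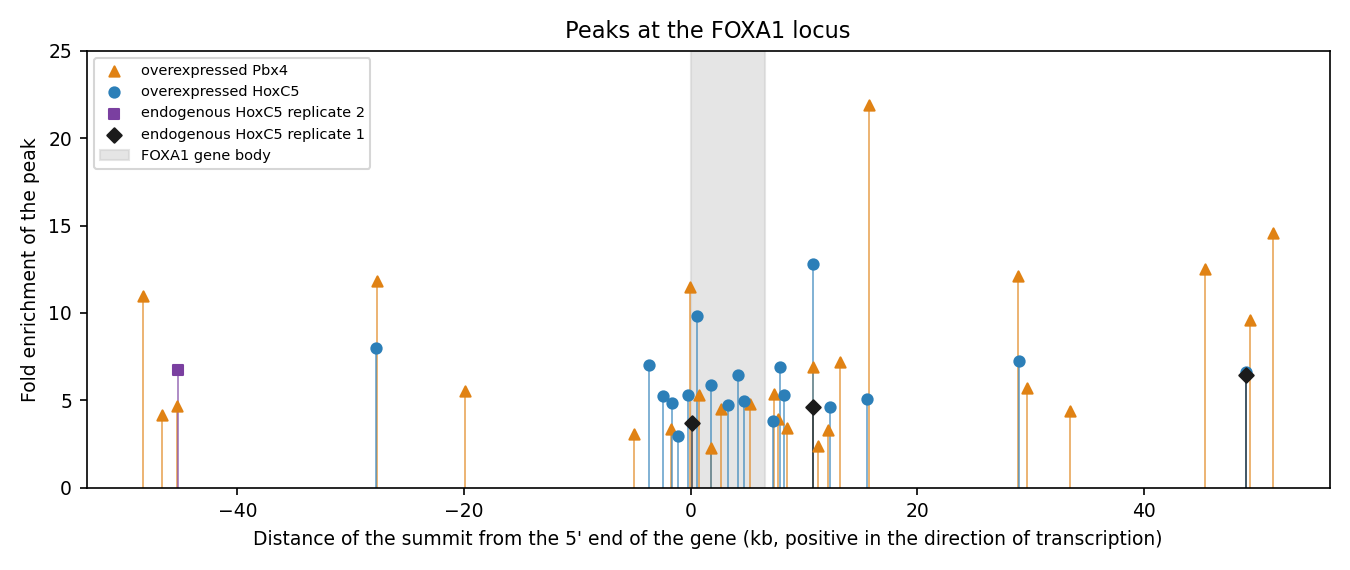
Fold enrichment of each peak at the FOXA1 locus (y axis) against the distance of its summit from the 5′ end of the gene (x axis, kb), by peak list, with the gene body in grey. The highest Pbx4 peak (fold 21.9) and the highest overexpressed HoxC5 peak (fold 12.8) both stand downstream of the gene, at different positions.

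FOXA2 and FOXA3, the relatives of FOXA1 that act in endoderm and liver, had no endogenous peak. FOXA2 had 6 peaks in each overexpression list, but only 1 HoxC5 and 1 Pbx4 peak overlapped, at their edges, with summits 570 bp apart. These summits were 8.95 and 9.52 kb downstream of a start site, with folds of 4.98 and 4.18. Overexpressed HoxC5 stood at the gene, with its highest peak, of fold 8.01, 49 bp from a start site. The Pbx4 summits were all 9.52 kb or more from a FOXA2 start site, and the highest had a fold of 9.40 at 31.9 kb upstream. FOXA3 shares its locus with 5 other coding genes, and no peak there was nearest to a FOXA3 start site. Its 5 HoxC5 peaks were closest to start sites of SYMPK, a scaffold of mRNA 3′ end processing, or IRF2BP1, a co-repressor. The highest, of fold 10.6, was 700 bp upstream of FOXA3 but 95 bp from a SYMPK start site. The single Pbx4 peak, of fold 15.1, lay 13.9 kb from a FOXA3 start site and overlapped no HoxC5 peak.

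FOXC1 and FOXC2 each had 7 peaks of overexpressed HoxC5 and 5 of Pbx4. At the start site of FOXC1, HoxC5 had a summit 86 bp upstream with a fold of 7.02, and Pbx4 had one 33 bp downstream with a fold of 5.79. The highest HoxC5 peak at FOXC1, of fold 13.3, was 3.25 kb downstream of the start in the 3′ UTR, and a Pbx4 summit of fold 6.71 lay 8 bp away. The highest Pbx4 peak, of fold 18.8, was 11.8 kb upstream and had no HoxC5 partner. FOXC2 had no summit within 1 kb of its start site in any list, the closest being a HoxC5 peak 2.76 kb upstream of fold 4.62 and a Pbx4 peak 9.18 kb downstream of fold 4.65. The site near FOXL1 that endogenous replicate 1 also held carried the highest HoxC5 peak of all 108, with a fold of 22.3 (top 0.414% of its list). The FOXC2 and FOXL1 window shown with the endogenous sites holds the Hox-Pbx word near this summit, ATCAATCA, which is TGATTGAT on the other strand. Pbx4 at this site had a fold of 4.65, at 78.3% of the way down its list. The highest Pbx4 peak at FOXC2, of fold 14.9, was 23.8 kb downstream and overlapped a HoxC5 peak of fold 6.36. For 6 of the 7 HoxC5 peaks and all 5 Pbx4 peaks, the nearest coding start site was not that of FOXC2 but of FOXL1, FOXF1 or MTHFSD.

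The FOXO genes were bound differently in the overexpression lists and had no endogenous peak, the nearest in replicate 1 being 3566 kb from FOXO1 and 3575 kb from FOXO3. FOXO1 had a single peak of overexpressed HoxC5, of fold 5.92, and 13 of Pbx4. The HoxC5 summit lay 63 bp upstream of the FOXO1 start site, and a Pbx4 peak of fold 7.04 had its summit at the same base. This site is shown because it is where both summits coincided at a start site.
FOXO1 start site, upstream, chr13:41240791-41240891, centred on the shared summit: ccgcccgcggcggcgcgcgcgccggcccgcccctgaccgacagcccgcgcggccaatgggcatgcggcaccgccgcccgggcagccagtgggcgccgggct
The other 12 Pbx4 peaks of FOXO1 overlapped no HoxC5 peak, and 28.5% of the whole Pbx4 list overlapped one. Of the 13, 7 were in introns of the gene. The highest had a fold of 12.3 and lay 43.4 kb from the nearest FOXO1 start site. FOXO3 had 13 HoxC5 peaks and 25 Pbx4 peaks, and each was nearer to a FOXO3 start site than to that of another coding gene. Its HoxC5 summits included 1 at 38 bp upstream of the 5′ start site, with a fold of 6.74, and the highest peak, of fold 11.7, was in an intron, 1.87 kb from a start site. No Pbx4 summit was within 1 kb of a FOXO3 start site, the closest being 1.25 kb upstream with a fold of 4.79. The highest Pbx4 peak, of fold 15.3, lay in an intron 5.29 kb from an internal start site, where HoxC5 had a fold of 5.61. Between the lists, 6 of the 13 HoxC5 peaks and 6 of the 25 Pbx4 peaks of FOXO3 overlapped.

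FOXP1 spans 629 kb on the minus strand of chromosome 3 (chr3:71003844-71633129), and its peaks were intronic for the most part and unevenly spread. Between 400 and 600 kb from the 5′ end lay 24 of its 44 HoxC5 peaks (54.5%), 50 of its 86 Pbx4 peaks (58.1%) and both endogenous peaks. The 100 kb after the 5′ end held 12 HoxC5 and 10 Pbx4 peaks, and the next 3 stretches of 100 kb held 5 HoxC5 and 19 Pbx4 peaks together. The highest HoxC5 peak of FOXP1, of fold 21.4 (top 0.491% of its list), lay in an intron 7.56 kb from an internal start site, where the Pbx4 fold was 6.69. The highest Pbx4 peak, of fold 16.3 (top 2.64%), was 672 bp from an internal start site, where the HoxC5 fold was 9.79. Near the 5′ end of the gene, a HoxC5 peak of fold 5.96 had its summit exactly on a start site, while the Pbx4 summit nearest to any FOXP1 start site was 57 bp from an internal one, with a fold of 3.37. Sharing was highest by number at this longest locus, with 34 of the 44 HoxC5 peaks overlapping a Pbx4 peak. Over the whole HoxC5 list, 67.7% of peaks did, and 75.8% of those over 1 kb from any coding start site.

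The overexpression peaks of FOXQ1 were all distal. Overexpressed HoxC5 had 3 peaks, with folds of 15.7, 14.8 and 5.62, and each overlapped a Pbx4 peak. Pbx4 had 13 peaks, with a median fold of 9.34, and 5 of them were in the top 10% of that list. The summits nearest the FOXQ1 start site were a Pbx4 peak of fold 5.31 at 9.79 kb and a HoxC5 peak of fold 14.8 at 13.7 kb. The highest peak in both lists was at the same place, 44.7 kb upstream of the gene for HoxC5 (fold 15.7, top 2.10%) and 44.8 kb for Pbx4 (fold 19.7, top 0.761%). This window is shown as the site where both folds were in the top 3% of their lists, and its AP-1 word is in capitals.
FOXQ1, upstream, chr6:1267525-1267654, over the overexpressed HoxC5 and Pbx4 summits: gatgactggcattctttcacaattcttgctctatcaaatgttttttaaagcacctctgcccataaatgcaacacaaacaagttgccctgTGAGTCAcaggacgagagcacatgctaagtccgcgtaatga
FOXM1 had 3 HoxC5 peaks and 1 Pbx4 peak, with no overlap between them. Over the whole lists, 67.7% of HoxC5 peaks overlapped a Pbx4 peak and 28.5% of Pbx4 peaks overlapped a HoxC5 peak. The HoxC5 summit 53 bp from a FOXM1 start site had a fold of 3.93, in the 5′ UTR of FOXM1 and an intron of RHNO1, a DNA damage response gene on the other strand. The highest HoxC5 peak, of fold 5.56, lay 8.28 kb upstream in a coding exon of RHNO1, and the Pbx4 peak, of fold 13.4, lay 16.0 kb upstream in an intron of TULP3, a gene of ciliary transport.

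**Figure D3:**
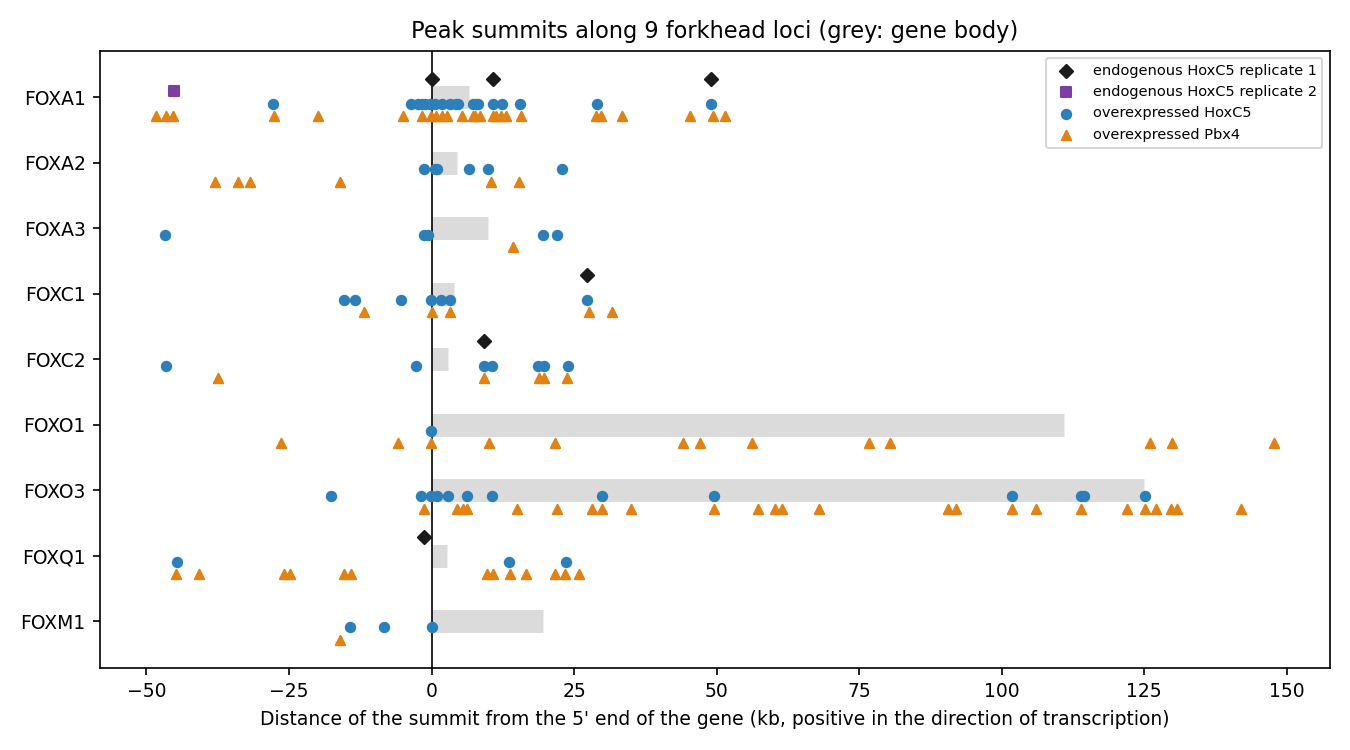
Positions of all summits at the 9 loci other than FOXP1, as distance from the 5′ end of the gene (x axis, kb), 1 row per gene with the gene body in grey and 1 marker shape per list. FOXA1 shows the densest rows, FOXO1 has a single overexpressed HoxC5 summit at its 5′ end, and FOXQ1 has no overexpression summit near its 5′ end.

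At the forkhead loci, the share of HoxC5 peaks overlapping Pbx4 depended on FOXP1, while the reverse share changed little without it. Of the 108 overexpressed HoxC5 peaks, 64 overlapped a Pbx4 peak (59.3%, 95% interval 49.4 to 68.6%), beside 67.7% of the whole HoxC5 list. Without FOXP1 the share was 30 of 64 (46.9%, 95% interval 34.3 to 59.8%). Of the 181 Pbx4 peaks, 62 overlapped a HoxC5 peak (34.3%, 95% interval 27.4 to 41.7%), beside 28.5% of the whole Pbx4 list. Without FOXP1 this share was 31 of 95 (32.6%, 95% interval 23.4 to 43.0%). HoxC5 peaks within 1 kb of a coding start site overlapped Pbx4 in 10 of 27 cases (37.04%), and those farther away in 54 of 81 (66.7%). The whole list showed the same order, with 40.6% and 75.8%. When overlapping peaks of the 4 lists were merged, the loci held 225 sites, of which 118 were in the Pbx4 list alone, 44 in the overexpressed HoxC5 list alone and 54 in both. A further 7 were in replicate 1 and both overexpression lists, 1 in replicate 2 and Pbx4, and 1 in replicate 1 alone. No site was in both endogenous replicates, beside overlaps of 5.35% of the whole replicate 1 list and 79.4% of the replicate 2 list.

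Heights of HoxC5 and Pbx4 peaks that overlapped were weakly related at these loci and in the whole list. Over the 64 pairs of a HoxC5 peak and the Pbx4 peak it shared most bases with, the median distance between summits was 57.5 bp, and 42 pairs had summits within 100 bp. Fold enrichments had a Spearman rho of 0.07 over these 64 pairs, which all come from the same pair of libraries, and of 0.16 over the 45492 pairs of the whole list. Of the 64 HoxC5 peaks, 11 were in the top 10% of their list by fold, and 2 of these had a Pbx4 partner in the top 10% of its list. Without FOXP1, this was 1 of 5, and over all pairs of the whole list it was 1974 of 6003. At the FOXC2 and FOXL1 site, the HoxC5 fold was 22.3 and the Pbx4 fold 4.65, whereas at the FOXA1 site 14.0 kb from the start, the HoxC5 fold was 5.11 and the Pbx4 fold 21.9.

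**Figure D4:**
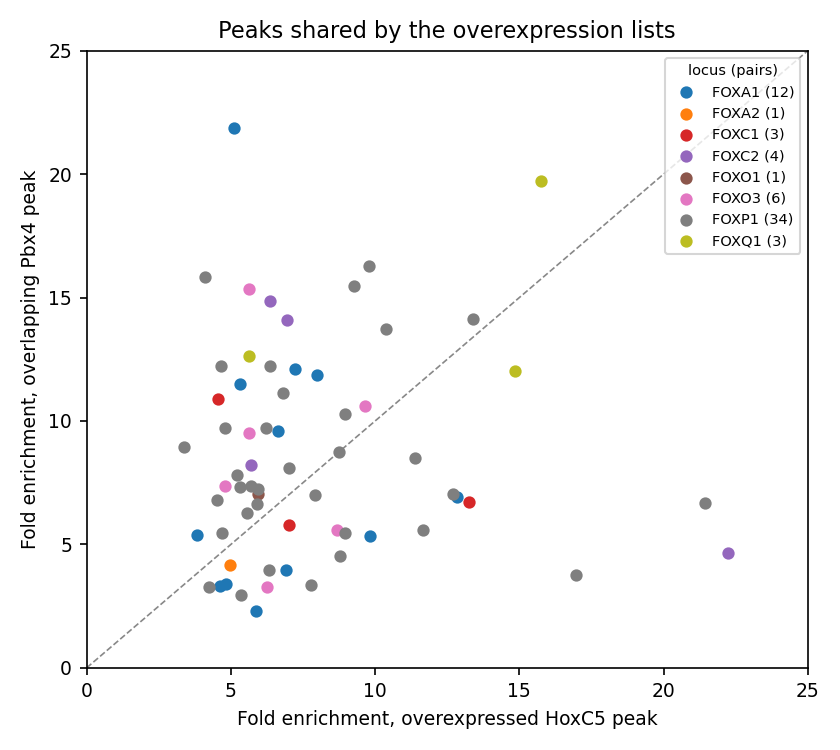
Fold enrichment of each overexpressed HoxC5 peak at the forkhead loci (x axis) and of the Pbx4 peak it overlaps (y axis), 1 point per pair, coloured by locus, with the number of pairs in the legend. The dashed line marks equal folds, and the folds of the lists were not scaled to each other. The 64 points follow no common line (Spearman rho 0.07).

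The strength and placing of the members' peaks were close to those of the whole lists in most respects. The median fold at the loci was 6.03 for overexpressed HoxC5, beside 6.17 for its whole list, and 6.69 for Pbx4, beside 6.36. In the HoxC5 list, 12 of the 108 peaks (11.1%) were in the top 10% by fold, and in the Pbx4 list 22 of the 181 (12.2%). Summits within 1 kb of any coding start site made up 25% of the members' HoxC5 peaks, beside 23.1% of the list, and 9.94% of their Pbx4 peaks, beside 8.67%.

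The word searched for forkhead proteins, GTAAACA, was within 50 bp of 5 of the 108 overexpressed HoxC5 summits (4.63%, beside 3.0% of the list) and of 8 of the 181 Pbx4 summits (4.42%, beside 3.84%). In the endogenous lists it was near 1 of the 8 summits of replicate 1, the FOXA1 peak in MIPOL1, and near the single summit of replicate 2, beside 6.06% and 9.41% of those lists. The AP-1 words were near 2 of the 8 summits of replicate 1 (25%, beside 16.0%) and not near that of replicate 2 (beside 14.1%). These 2 were the FOXC1 summit and the FOXA1 start-site summit, which the printed window does not cover. In the overexpression lists the AP-1 words were near 11 of the 108 HoxC5 summits (10.2%, beside 20.5% of the list). They were near 38 of the 181 Pbx4 summits (21.0%, beside 18.5%), and 23 of the 38 were at FOXP1. The Hox-Pbx words were near 3 HoxC5 summits, 1 at FOXC2 and 2 at FOXP1, beside 1.59% of the list, and near 2 Pbx4 summits, 1 at each of these genes, beside 1.15%. The GC box was near 7 of the HoxC5 summits (6.48%, beside 2.75%) and 1 Pbx4 summit (0.552%, beside 0.505%). The Meis word was near 3 of the HoxC5 summits (2.78%, beside 7.88%) and 14 of the Pbx4 summits (7.73%, beside 10.4%). The TEAD word was near 5 of the HoxC5 summits (4.63%, beside 9.03%) and 17 of the Pbx4 summits (9.39%, beside 10.9%). The Hox word TAATTA was near 1 summit in each overexpression list, beside 2.01% and 1.96% of the lists. The FOXA3 Pbx4 peak, of fold 15.1, held TGTTTAC with 3 copies of the Meis word.

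Among the other 34 examined forkhead genes of the annotation, 4 had endogenous peaks in replicate 1 (11.8%, beside 17.2% of all protein-coding genes). None had one in replicate 2, beside 1.47% of all genes. The 4 genes of replicate 1 were FOXH1, a partner of Smad proteins, with 6 peaks, FOXN3 with 2, and FOXJ3 and FOXL1 with 1 each. A replicate 1 summit lay within 1 kb of a start site at FOXN3 and FOXL1, and none did at FOXH1 or FOXJ3. At FOXH1 no overexpressed HoxC5 summit lay within 1 kb either. The FOXL1 peak is the one also counted for FOXC2. The overexpression peaks of FOXC2 that lie nearest to FOXL1 or FOXF1 are likewise counted again for those genes. Overexpressed HoxC5 had a peak at 28 of the 34 (82.4%, beside 87.8% of all genes) and Pbx4 at 31 (91.2%, beside 93.1%). The medians were 2.45 and 4.09 peaks per 100 kb, beside 3.15 and 5.97 over all protein-coding genes. A summit within 1 kb of a start site was found at 11 of the 34 with overexpressed HoxC5 and at 8 with Pbx4. Over all protein-coding genes this held for 55.0% and 42.0%, so that both shares were lower in these 34. The largest numbers were 16 HoxC5 peaks at each of FOXH1 and FOXN3, and 31 Pbx4 peaks at FOXJ3, all below the numbers at FOXP1.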

How the data were processed

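BWA-MEM was the authors' aligner, with hg19 as the reference. After filtering on mapping quality and removal of duplicates, MACS2 was run by the authors on each library at a q-value of at most 0.05. The version of MACS2 and the control of each peak list are not given in the sources used here. Per peak, the deposited lists give the interval, the summit, a score, 2 −log10 columns (p and q) and a fold enrichment, which is a ratio to local background. The summit, the fold and the −log10 q were used here as deposited by the authors. Read totals were not in the lists, so that no precision from depth can be given.

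All chromosome names matched GRCh37, and 0 peaks ended beyond a chromosome. Protein-coding genes and start sites came from GENCODE 44 lifted to GRCh37. Overlap meant at least 1 bp. Shares have exact Clopper-Pearson intervals at 95%. Words were sought within 50 bp of summits on chromosomes 1 to 22, X and Y, which leaves out 24 overexpressed HoxC5 and 63 Pbx4 peaks of the whole lists.

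The genes, lists and words were chosen with earlier results of these data known. All 10 members are named, with every endogenous peak and, per overexpression list, the peak of highest fold and the one nearest a start site. Other genes are named where their start site is the nearest coding one or they share a locus. Printed windows were set by rule for endogenous sites also in both overexpression lists, and those of the replicate 2 site, the FOXQ1 sites and FOXO1 were chosen after their values were seen. The counting of summits and overlaps was tested on simulated data. The tools were pysam 0.24.0, pandas 2.3.3, numpy 2.4.6, scipy 1.17.1 and matplotlib 3.10.9, under Python 3.11.15.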

Additional observations from a re-analysis of the deposited data

How the results depend on the processing

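Counts of peaks and genes and shares of overlap were recomputed under the alternatives, 114 values in all, of which 89 stayed within 1.5 times the reported count or within the 95% interval of the reported share. A q-value of at most 0.01, a window of 100 kb and an overlap of at least 0.5 of the shorter peak moved none of them beyond these limits, nor did the use of a single start site per gene. The overexpressed HoxC5 list already ended at a q-value of 0.00997, so that the limit of 0.01 could not change its counts. With a fold enrichment of at least 5, replicate 1 kept 4 of its 8 peaks, no member had a start-site peak there (0 genes), and the share found in overexpressed HoxC5 was 25%. With a window of 10 kb, replicate 2 had 0 peaks and 0 genes. With gene bodies alone, replicate 1 had 3 peaks at 2 genes, replicate 2 had 0 peaks at 0 genes, overexpressed HoxC5 had 62 peaks at 6 genes and Pbx4 had 113 peaks at 5 genes. With only peaks whose nearest coding start site was that of a member, replicate 1 had 5 peaks at 3 genes and replicate 2 had 0 at 0. With summits within 100 bp, the share of overexpressed HoxC5 peaks in Pbx4 was 38.9% and of Pbx4 peaks in HoxC5 23.2%. The replicate 1 shares were then 75% in overexpressed HoxC5 and 50% in Pbx4, in place of 87.5% each. Both count as unmoved only because the interval of 7 of 8 is wide, 47.3 to 99.7%, so that large changes stay inside it. Leaving out FOXP1, an alternative chosen after seeing the data, left 64 HoxC5 and 95 Pbx4 peaks. The share of HoxC5 in Pbx4 was then 46.9%, and that of Pbx4 in HoxC5 was 32.6%. Leaving out each endogenous replicate in turn gave 1 to 8 endogenous peaks in place of 9, 1 to 5 genes in place of 5, and 0 to 87.5% found in overexpressed HoxC5 in place of 77.8%, the lowest values being those without replicate 1. No paired analysis was possible because no result comes from a test.

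Depth is stated only as an average span and not per library, the overexpression conditions have 1 library each, and the lists end at different q-values, so that numbers of peaks cannot be compared between lists as amounts of binding. A peak within 50 kb of a gene need not act on that gene. Another coding start site was nearer for every peak at FOXA3, most peaks at FOXC2 and FOXM1, and some at FOXA1 and FOXC1. A gene without a peak was not shown to be unbound. With 8 and 1 endogenous peaks, shares over them have wide intervals.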
